A study of Mus musculus with 6 samples.

Results

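The ISG15 pathway was examined through 5 genes, Isg15, Uba7, Ube2l6, Herc6 and Usp18, in a table that held 19930 genes with a feature of their own and 35545 features in all. A feature is a set of probes on the array that is read as 1 value. The genes were taken by symbol, as the modifier ISG15, its E1, E2 and E3 enzymes and its protease. Each had 1 feature. Uba7, Ube2l6, Herc6 and Usp18 had a feature annotated to that gene alone, whereas the Isg15 feature was also annotated to Gm9706, a pseudogene on chromosome 17, and its values cannot be divided between them.

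H10 and C8 are both lines derived from RAW264.7 mouse macrophages that had been stably transduced with Lifeact-mEGFP, a green label for actin filaments. H10 cells fused into multinucleated osteoclasts and C8 cells did not. Total RNA was taken from 3 samples of H10 cells and 3 of C8 cells after 2 days with RANKL, the cytokine that drives osteoclastogenesis (OCG), at 60 ng/mL, so no unstimulated cells entered the comparison. The lines came from puromycin-resistant clones, and each phenotype therefore rests on 1 line. The sources used here do not say whether arrays of 1 line stand for separate cultures, and p-values measure only the spread between arrays, which may be technical.

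ISG15 is a ubiquitin-like protein that cells make in response to type I interferon. An E1 enzyme (UBA7) activates it, an E2 enzyme (UBE2L6) carries it, and an E3 ligase attaches it to lysines of other proteins, a reaction called ISGylation. Mice lack HERC5, the main ISG15 ligase of human cells, and HERC6 takes that part. USP18 cuts ISG15 off its targets and, apart from this activity, binds the interferon receptor chain IFNAR2 and damps its signalling. In macrophages the pathway is known for antiviral defence.

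The stretches in front of the Isg15 and Uba7 start sites are shown because they hold short motifs bound by interferon-regulated transcription factors. Promoter sequences from RefSeq (GRCm38.p6) were matched for 4 of the 5 genes, and Usp18 was not among them. The 250 bases before each start were searched on both strands for GAAANNGAAA, the core of the interferon-stimulated response element (ISRE), and for AANNGAAA, the shorter core bound by interferon regulatory factors, which every copy of the first motif contains. Isg15 had 3 copies of the first motif, at overlapping positions, and 4 of the second, whereas Uba7 had 0 and 1. Neither motif was found in this window of Ube2l6 or Herc6. Of 32851 promoters in the RefSeq table, 2.98% held the first motif and 21.3% the second. A match is a description of letters, not evidence of binding. The 150 bases before each start follow, 5′ to 3′ along the gene, with every base of an AANNGAAA match on either strand in capitals. The Isg15 stretch lies at chr4:156200819-156200968 on the minus strand and the Uba7 stretch at chr9:107975417-107975566 on the plus strand.
Isg15: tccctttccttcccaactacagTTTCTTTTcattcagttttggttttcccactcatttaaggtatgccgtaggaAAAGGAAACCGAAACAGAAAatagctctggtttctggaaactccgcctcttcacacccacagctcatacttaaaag
Uba7: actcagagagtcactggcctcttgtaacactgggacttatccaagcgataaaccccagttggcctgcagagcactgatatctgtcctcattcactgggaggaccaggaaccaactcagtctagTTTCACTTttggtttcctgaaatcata
The run of capitals in the middle of the Isg15 stretch holds the ISRE cores except for the first 2 bases of the one farthest from the start. These overlapping cores begin 78, 72 and 66 bases before the start. The single Uba7 match begins 27 bases before the start and reads on the opposite strand.

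All 5 genes rose in H10 cells relative to C8 cells. The protease gene Usp18 was 13.8-fold higher, the modifier and the E2 and E3 genes were 2.22-fold to 2.54-fold higher, and the E1 gene Uba7 was 1.61-fold higher. The 2.22-fold of Isg15 is uncertain in size, since its values were under the array medians in C8 cells and on H10 replicate 1. Each of the 5 passed an adjusted p under 0.05 in limma, with p-values adjusted by Benjamini-Hochberg across every feature, against 1.36% of all 35545 features that were called higher (1.85% of genes, at 1 feature per gene). Their median log2 fold change, H10 minus C8, was 1.31, and that of all features was -0.02. For all 5 the H10 arrays lay above the C8 arrays with no overlap, which was so for 6.96% of features. The study itself named Usp18 as higher from these arrays, so its direction is not independent evidence. The study also followed Usp18 by RT-qPCR over OCG in bone marrow monocytes and RAW264.7 cells. Of the genes so tested, it reported a significant increase for CD109 only. That is a change over time and not H10 against C8. The pooled RNA cannot tell apart fewer cells that express a gene and less RNA in each cell. Under quantile normalization and under median centring the direction held for all 5 genes.

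**Figure D1:**
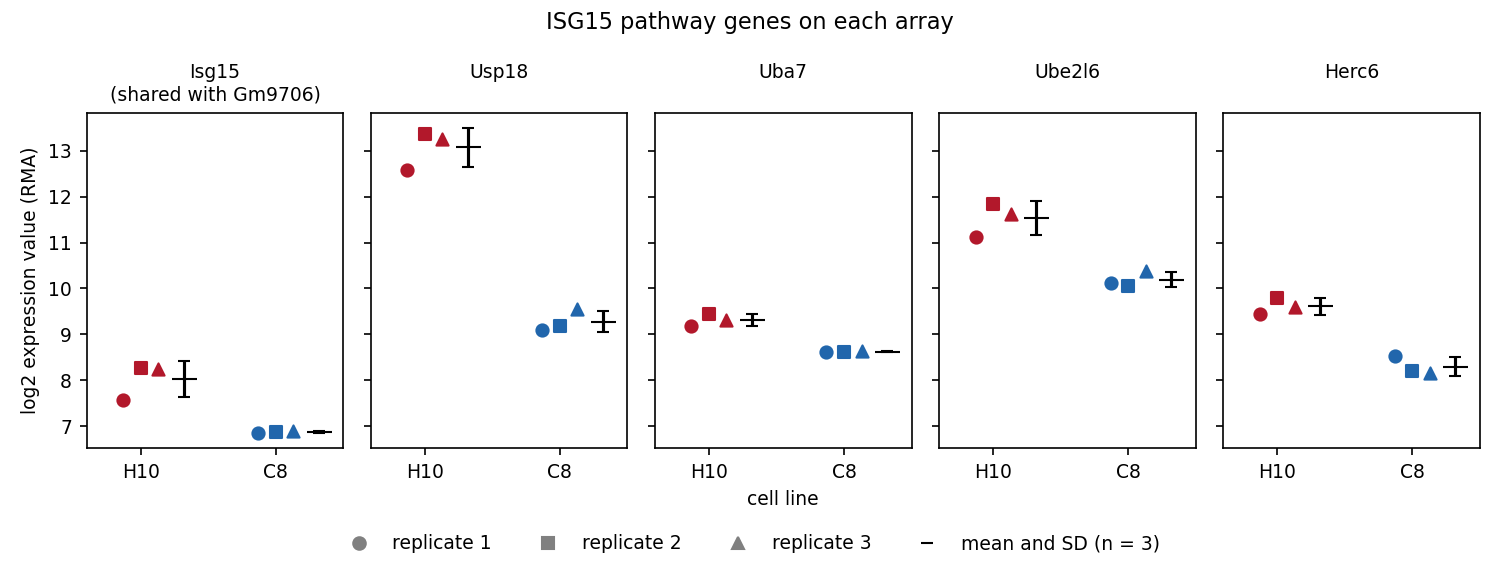
Log2 expression values of Isg15, Usp18, Uba7, Ube2l6 and Herc6 on each H10 and C8 array, with bars for the line mean and its SD (n = 3). The H10 points lie above the C8 points in every panel, and the gap is widest for Usp18, at 3.04 between the lowest H10 and the highest C8 array.

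Isg15, which encodes the modifier, had log2 values of 7.57, 8.26 and 8.25 in H10 replicates 1, 2 and 3, against 6.86, 6.88 and 6.89 in C8 replicates 1, 2 and 3. The 3 C8 arrays were within 0.03 of each other, while H10 replicate 1 was 0.69 below replicate 2 and lay between the C8 arrays and the other H10 arrays. The mean log2 value was 8.03 ± 0.40 in H10 cells, against 6.88 ± 0.02 in C8 cells (SD, n = 3 each). H10 minus C8 was 1.15 on the log2 scale (standard error 0.19, 95% interval 0.70 to 1.60, adjusted p = 0.0351 from limma). In C8 cells these values were under the array medians, which were 7.65 to 7.74. The value of H10 replicate 1, 7.57, was also under its array median of 7.72. Without a measure of background the size of the rise of Isg15 is uncertain. The call was lost when any array other than H10 replicate 1 was left out (adjusted p = 0.103 to 0.134 without H10 replicate 2 or 3 or C8 replicate 1, 2 or 3).

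Uba7, the E1 that activates ISG15, had log2 values of 9.19, 9.44 and 9.31 on the H10 arrays, against 8.62, 8.62 and 8.63 on the C8 arrays. Both lines were tight, and the lowest H10 array was still 0.56 above the highest C8 array. The log2 fold change was 0.69 (standard error 0.08, 95% interval 0.50 to 0.88, adjusted p = 0.00939 from limma), the smallest of the 5. Without H10 replicate 3, C8 replicate 2 or C8 replicate 3, Uba7 just missed the threshold, with adjusted p of 0.0587, 0.0521 and 0.0514 and the same log2 fold change of 0.69.

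Ube2l6, the E2 that carries ISG15, had log2 values of 11.13, 11.84 and 11.63 on the H10 arrays, against 10.13, 10.06 and 10.37 on the C8 arrays. H10 replicate 1 was again the lowest of its line, and it stood 0.76 above the highest C8 array. The log2 fold change was 1.35 (standard error 0.19, 95% interval 0.90 to 1.80, adjusted p = 0.0205 from limma). As for Isg15, the call was lost when any array other than H10 replicate 1 was left out (adjusted p = 0.0572 to 0.10), and the log2 fold change was then 1.19 to 1.44. With the replicate number as a block, Isg15 and Ube2l6 did not pass (adjusted p = 0.0643 and 0.0506).

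Herc6, the ligase that attaches ISG15 in mice, had log2 values of 9.44, 9.80 and 9.60 on the H10 arrays, against 8.53, 8.21 and 8.16 on the C8 arrays. The spread was alike in both lines, with a range of 0.36 in H10 cells and 0.37 in C8 cells. Its log2 fold change was 1.31 (standard error 0.13, 95% interval 1.00 to 1.63, adjusted p = 0.00652 from limma), and it passed whichever array was left out (adjusted p = 0.0105 to 0.0422).

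Usp18, the protease that removes ISG15, had log2 values of 12.59, 13.36 and 13.26 on the H10 arrays, against 9.10, 9.19 and 9.55 on the C8 arrays. H10 replicate 1 was 0.77 below replicate 2, yet 3.04 above the highest C8 array. The log2 fold change was 3.79 (standard error 0.22, 95% interval 3.25 to 4.33, adjusted p = 0.00119 from limma), which ranked 7 from the top among the 35545 features. Usp18 was the only 1 of the 5 genes that was higher by 5-fold or more at this threshold, as were 0.124% of features. It passed whichever array was left out (adjusted p = 0.000654 to 0.0114).

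**Figure D2:**
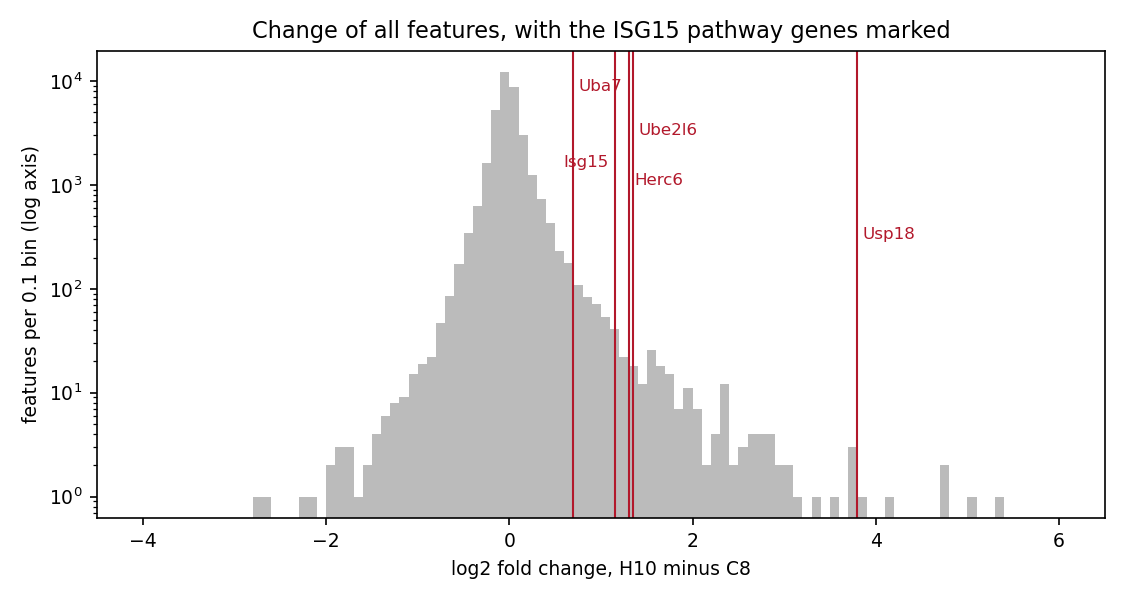
Histogram of the log2 fold change of all 35545 features, H10 minus C8, on a log count axis, with a line at each ISG15 pathway gene. Uba7, Isg15, Herc6 and Ube2l6 lie between 0.69 and 1.35, in the upper tail, and Usp18 lies far to the right at 3.79.

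The rise was largest for Usp18 and smallest for Uba7, but no difference between 2 genes could pass its test. For each of 10 pairs, the per-array difference of the 2 log2 values was compared between H10 and C8 cells by an exact permutation test, two-sided, which with 3 against 3 arrays cannot go below 0.1. The differences of 7 pairs did not overlap between the lines and had that smallest p (exact p = 0.1, adjusted p = 0.143 over the 10 pairs), so none passed the threshold. These were the 4 pairs with Usp18 and the 3 others with Uba7. The 7 pairs thus rest on 2 genes read on the same arrays and are not separate results. How often pairs of other features do not overlap was not computed, so the count has no background to be read against. The log2 fold change of Usp18 exceeded that of Ube2l6 by 2.44 (standard error 0.08, n = 3 arrays a line). The standard errors of pairs come from the per-array differences alone and not from limma. They are therefore not comparable with those of single genes. That of Uba7 minus that of Ube2l6 was -0.66 (standard error 0.17). The 4 pairs with Isg15 rest on its dim C8 values, so their differences are uncertain in size. Isg15, Ube2l6 and Herc6 formed the remaining 3 pairs, which overlapped between the lines, and Ube2l6 minus Herc6 was 0.03 (standard error 0.21).

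Within H10 cells the 5 genes ordered the arrays alike. Replicate 2 was the highest, replicate 3 the next and replicate 1 the lowest for all 5 genes, an order seen in 14.6% of all features and in 35.3% of the 484 features that were higher in H10 cells. For Isg15, replicate 2 exceeded replicate 3 by only 0.01. H10 replicate 1 minus the H10 mean was -0.48 for Usp18 and -0.12 for Uba7, with the other 3 genes in between. The 5 values of an array come from the same RNA and are not separate observations. In C8 cells replicate 3 was the highest array for Isg15, Usp18, Uba7 and Ube2l6, by 0.01 for Isg15 and for Uba7, and it was the lowest for Herc6. Without H10 replicate 1, or without the replicate 1 arrays of both lines, 5 of the 5 genes still passed.

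**Figure D3:**
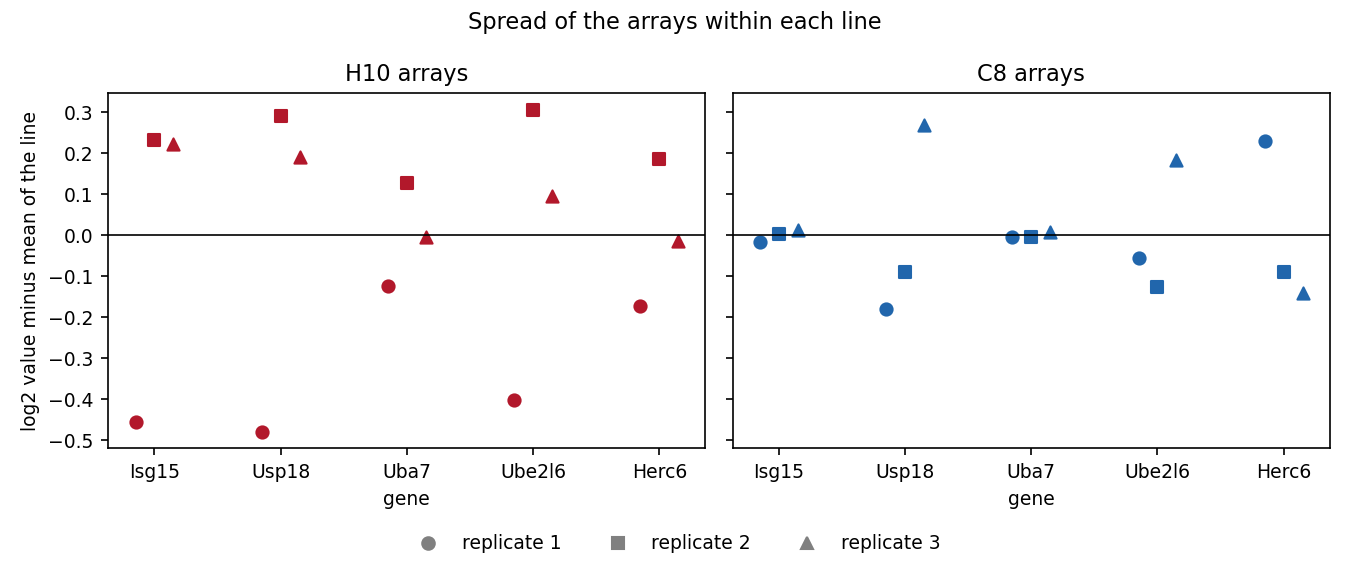
Log2 value of each H10 and C8 array minus the mean of its own line, for the 5 ISG15 pathway genes. H10 replicate 1 is the lowest H10 array for every gene, at -0.48 for Usp18 and -0.12 for Uba7, and C8 replicate 3 is the highest C8 array for every gene but Herc6.

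Genes with the same kinds of enzyme activity were read beside the 5. Of 26 relatives by role that had a feature of their own, 0 were called higher and 1 lower, against 1.36% and 0.757% of all features, and their log2 fold changes lay between -0.42 and 0.44. At those shares, a count of 0 or 1 among 26 genes does not set the relatives apart from other features. The difference between the 5 genes and these relatives was not itself tested. Among 6 E1 genes for other modifiers, 0 passed. Sae1, which with its partner activates SUMO, had a log2 fold change of -0.07 (95% interval -0.23 to 0.10), and Uba3 and Nae1, the subunits of the NEDD8 E1, had 0.06 and 0.05. Among 8 E2 genes, 0 passed. Ube2l3, the closest relative of Ube2l6 and an E2 for ubiquitin, had 0.09 (95% interval -0.09 to 0.27), so a change of the size of Ube2l6 lies outside its interval. Ube2e1 and Ube2e2 had 0.02 and 0.03.

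Other ISG15 ligases and the HERC family gave mixed values. Trim25, a ligase of the RIG-I pathway that also transfers ISG15 in human cells, had log2 values of 11.59, 11.84 and 11.79 on the H10 arrays, against 11.33, 11.35 and 11.21 on the C8 arrays. The lines did not overlap, and its log2 fold change of 0.44 did not pass (95% interval 0.24 to 0.65, adjusted p = 0.0661 from limma). Arih1, a ligase reported to act on ISG15, had -0.19 (adjusted p = 0.269). Herc1, a giant HERC protein, fell by 0.42 on the log2 scale (adjusted p = 0.0437), and this call was lost without each single array in turn (adjusted p = 0.0848 to 0.183). Herc2 had -0.02. Of 6 further proteases that cleave ISG15 or its conjugates in biochemical assays, 0 passed, with log2 fold changes of -0.17 for Usp2, -0.03 for Usp5 and 0.07 for Usp13. The feature of Usp13 was under the median of every array.

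**Figure D4:**
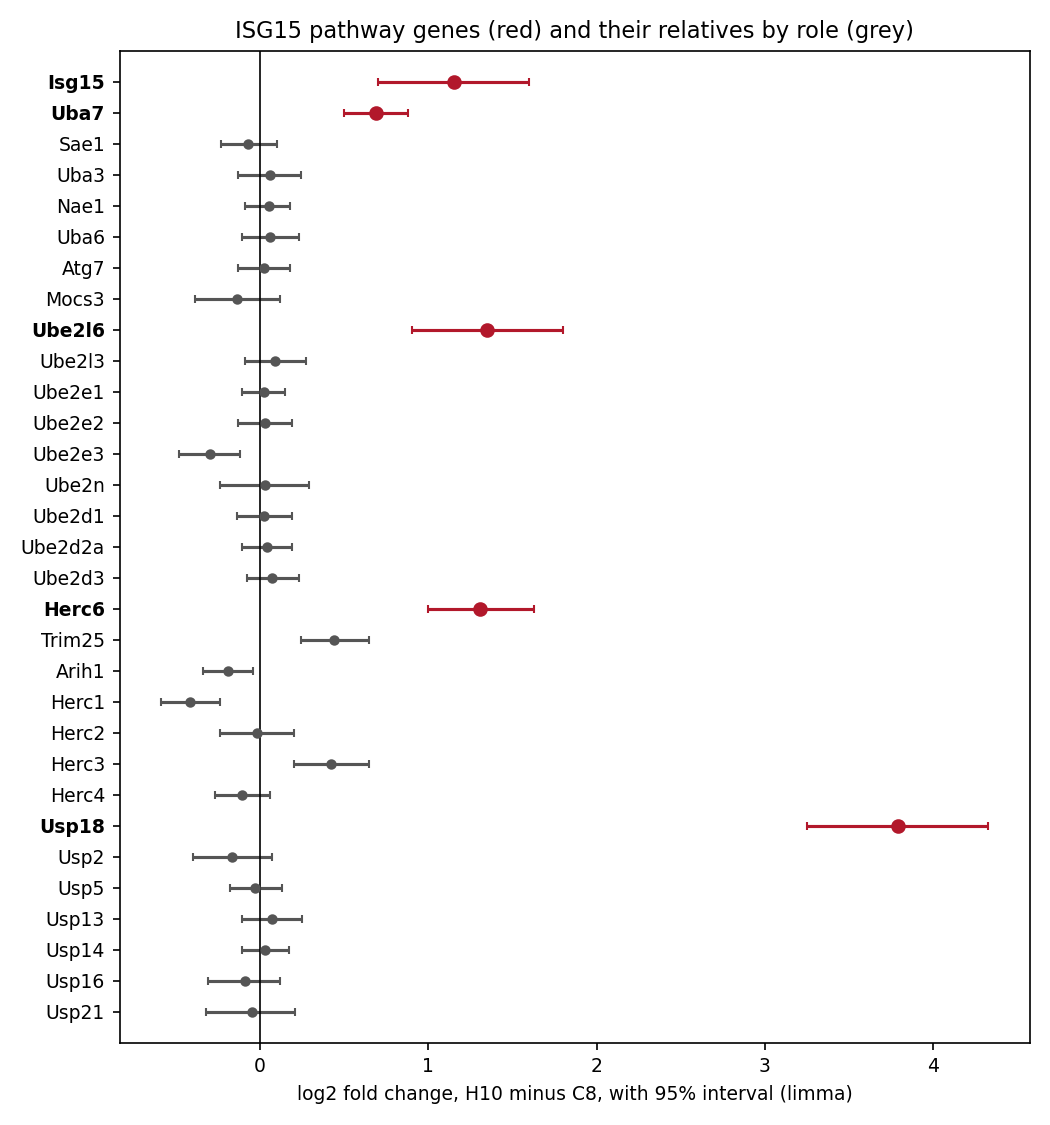
Log2 fold change, H10 minus C8, with its 95% interval from limma, of the 5 ISG15 pathway genes (red) and of the 26 relatives with the same role listed beneath each enzyme (grey). The red intervals lie above 0, from 0.50 upward, and the grey values lie between -0.42 and 0.44.

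Of 14 genes of other ubiquitin-like modifiers, 0 passed, and their log2 fold changes lay between -0.11 and 0.20. Of all features 1.36% were called higher and 0.757% lower, so a count of 0 does not set so short a list apart. Nedd8, which activates cullin ligases, had -0.02, and Sumo2 and Sumo3, which modify many nuclear proteins, had 0.06 and 0.13. The median over these 14 genes was 0.04, against -0.03 over all genes.

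Of 8 measured partners of USP18 and ISG15, 0 passed, where 1.36% of all features were called higher and 0.757% lower. Ifnar1 and Ifnar2, the chains of the type I interferon receptor, had log2 fold changes of 0.07 and -0.01. Stat2, a signal transducer that brings USP18 to that receptor, had values of 9.50, 9.84 and 9.93 on the H10 arrays, against 9.28, 9.01 and 9.01 on the C8 arrays. The lines did not overlap, and the log2 fold change of 0.66 did not pass (95% interval 0.33 to 0.98, adjusted p = 0.0765 from limma).

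Of 15 measured genes whose proteins are reported ISG15 substrates, 6 were higher and 0 lower, with a median log2 fold change of 0.14. Of all features 1.36% were called higher and 0.757% lower, and the median over all genes was -0.03. The 6 substrate genes that rose are themselves interferon-induced antiviral genes. Ddx58, the RNA sensor RIG-I, had log2 values of 12.10, 12.64 and 12.51 on the H10 arrays, against 9.94, 9.43 and 9.62 on the C8 arrays, a log2 fold change of 2.75 (adjusted p = 0.00151). Rsad2, the antiviral enzyme viperin, Ifih1, the RNA sensor MDA5, and Ifit1, which binds viral RNA, rose by 2.70, 2.36 and 2.29 (adjusted p = 0.00333, 0.00506 and 0.0113). The means of Rsad2 and Ifit1 in C8 cells, 6.80 and 7.08, were under the C8 array medians, so the sizes of their rises are uncertain. Ifit1 did not pass without H10 replicate 3, C8 replicate 2 or C8 replicate 3 (adjusted p up to 0.0612). Irf3, the factor that starts interferon transcription, Eif4e2, a cap-binding protein, and Mx1, an antiviral GTPase, had -0.03, 0.06 and 0.14. Mx1 was under the median of every array, so its value does not show an unchanged gene.

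Of 7 measured transcription factors of the ISRE, 3 were higher and 0 lower, against 1.36% and 0.757% of all features. Irf7, which amplifies interferon transcription, had log2 values of 12.03, 12.72 and 12.59 on the H10 arrays, against 8.81, 8.55 and 8.85 on the C8 arrays. Its log2 fold change was 3.71 (adjusted p = 0.000639 from limma). The study named Irf7, too, from these arrays, and Irf7 was among the genes of its RT-qPCR, where only CD109 was reported to increase significantly. Irf9, the DNA-binding part of the interferon-activated factor ISGF3, had 10.66, 10.91 and 10.85 on the H10 arrays, against 9.87, 9.65 and 9.71 on the C8 arrays, a log2 fold change of 1.06 (adjusted p = 0.00405). For both genes H10 replicate 1 was the lowest H10 array, as for the 5 ISG15 pathway genes. Irf1 rose by 0.78 (adjusted p = 0.019), and its call held without 1 array, C8 replicate 1, and was lost without each of the others in turn (adjusted p up to 0.0961). Irf2 and Irf3 had -0.16 and -0.03. Of 8 measured interferon ligand genes, 0 passed, with log2 fold changes between -0.09 and 0.09, and 6 of them were under the median of every array. Ifnb1, Ifng and Ifne had 0.09, -0.02 and -0.06.

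The genes whose pattern over the 6 arrays was most like each of the 5 were found by the root mean square (RMS) difference of log2 values, each gene centred on its own mean. The search covered genes with a feature of their own and left out the 5. The 3 nearest to Usp18 were Irf7, Rtp4 and Lgals9, at 0.14, 0.17 and 0.18, with log2 fold changes of 3.71, 3.84 and 3.74. The study named Irf7 and Lgals9, like Usp18, from these arrays. The 3 nearest to Herc6 were Nmi, Ifi35 and Bhlhe40, at 0.04, 0.06 and 0.07, and those nearest to Ube2l6 were Oas1a, Slc6a8 and Ckb, at 0.10, 0.14 and 0.15. The list for Isg15 was Bst2, Osbpl8 and Nedd4l, at 0.11, 0.12 and 0.12, and that for Uba7 was Cd180, Pnp and Sh2d3c, at 0.03, 0.03 and 0.04. Nedd4l itself was not called higher (log2 fold change 1.05, adjusted p = 0.131 from limma). Among the 5 genes, Isg15 and Ube2l6 were the closest, at 0.15, and Usp18 and Uba7 the farthest apart, at 1.57. The values were centred but not scaled, so genes with log2 fold changes of like size lie near each other by construction. All of these patterns were read on the same 6 arrays.

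In the gene order of GRCm38.p6 the measured neighbours of the 5 genes did not pass the test, with 1 exception. Agrn, which encodes agrin and is the nearest measured gene before Isg15 on chromosome 4, rose by 0.97 (standard error 0.15, adjusted p = 0.0293 from limma), and no gene with a feature of its own was found on the other side. Tuba8 and Slc6a13, on either side of Usp18, had log2 fold changes of 0.00 and -0.01. Traip and Inka1, beside Uba7, had -0.08 and 0.06, and Serping1 and Smtnl1, beside Ube2l6, had 0.03 and 0.00. Ppm1k and Pyurf, beside Herc6, had -0.53 (adjusted p = 0.0726) and -0.12. These neighbours were taken by position alone, outside the rule for named genes.

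The arrays were alike in scale, with a median log2 value of 7.69 to 7.72 in H10 and 7.65 to 7.74 in C8 cells. Of 8 macrophage markers, 5 were above the median of every array and 1, Mertk, was under it on every array. Csf1r, the receptor for M-CSF, averaged 13.24 ± 0.02 in H10 cells, against 13.33 ± 0.03 in C8 cells (log2 values, SD, n = 3 each). Adgre1, which encodes a macrophage surface protein, was the 1 macrophage marker that rose, with 9.58 ± 0.17 in H10 cells, against 7.56 ± 0.16 in C8 cells (log2 fold change 2.02, adjusted p = 0.00114 from limma). Of 10 osteoclast markers 6 were higher and 0 lower in H10 cells: Ctsk, Ocstamp, Oscar, Atp6v0d2, Dcstamp and Acp5, with log2 fold changes of 3.57, 2.69, 2.15, 1.52, 1.27 and 0.47. Mmp9, Car2, Calcr and Nfatc1 had -0.34, -0.20, 0.07 and 0.14. Of all features 1.36% were called higher and 0.757% lower. The 6 became 3 without H10 replicate 3 or without C8 replicate 3, since Acp5, Ocstamp and Atp6v0d2 no longer passed. They became 4 without H10 replicate 1, H10 replicate 2 or C8 replicate 2, since Acp5 and Ocstamp no longer passed. All 6 passed only when C8 replicate 1 was the array left out. The mean log2 value over the 10 markers was 11.59 to 11.76 on H10 arrays, against 10.44 to 10.75 on C8 arrays, and the part of the markers that rose in the values of the ISG15 pathway genes was not tested. Of 23 markers for fibroblasts, B cells, dendritic cells, T cells and NK cells, 0 passed and 18 were under the median of every array. The largest change among them was that of Dcn, the proteoglycan decorin of fibroblasts, with 8.46, 7.19 and 7.74 on the H10 arrays, against 6.50, 6.21 and 6.25 on the C8 arrays (log2 fold change 1.48, adjusted p = 0.074). The lines did not overlap for Dcn, and its part in the result was not tested.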

How the data were processed

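Total RNA of H10 and C8 cells was hybridised to Affymetrix mouse gene arrays, 3 for each line. Per the labels and the methods, the authors normalized the raw data with RMA, and the deposited values are log2 values. Affymetrix Expression Console is the tool in the submitters' processing notes, with its version not given in the sources used. The table held 35545 features with 0 missing values, between 2.91 and 14.7. It was used as deposited, with no filter. For a gene with several features the one with the highest mean value stood for it.

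H10 and C8 arrays were compared by limma 3.58.1 in R 4.3.3 (lmFit and eBayes, two-sided, 4 residual and 2.57 prior degrees of freedom), after the methods, with Benjamini-Hochberg adjustment over all features and a threshold of 0.05. Intervals are 95% intervals of the same fit, not adjusted for multiple testing. The fit was also run on simulated data in which arrays were independent, a check of the code and not of these results. The number of arrays limits the precision. Exact permutation tests used scipy 1.17.1. The 5 genes and 9 further gene lists were chosen with earlier results of these data known. From each list up to 4 genes past the test in each direction and the first 3 that did not pass were named, and for each of the 5 genes the 3 nearest patterns. Genes with no single-symbol feature were not analysed here. The alternatives were leaving out arrays, a block for the replicate number, median centring, quantile normalization, a filter on dim features (at least 3 arrays over the median of the table), an intensity trend with a robust prior, 1 feature per gene, the mean of a gene's features and an adjusted p under 0.01. Whether replicate numbers pair the arrays could not be settled by the check given in the closing section. Figures were drawn with matplotlib 3.10.9.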

Additional observations from a re-analysis of the deposited data

How the results depend on the processing

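All 5 genes stayed higher in H10 cells under every alternative run, and Usp18 and Herc6 passed under each of 15. Leaving out 1 array, or both replicate 1 arrays, the log2 fold change was 1.03 to 1.38 for Isg15, 1.19 to 1.55 for Ube2l6 and 0.63 to 0.75 for Uba7, and 2 to 5 of the 5 genes passed. Over these fits 183 to 448 features were called higher and 53 to 166 lower (115 lower without both replicate 1 arrays), against 484 and 269 with all 6 arrays. With the replicate number as a block, Isg15 (1.15) and Ube2l6 (1.35) did not pass, which left 3 of the 5 genes, and 290 features were higher and 98 lower. Whether the numbers pair the arrays is not settled. Deviations from the line means correlated at r = 0.166, -0.0043 and -0.121 across features for replicates 1, 2 and 3. H10 replicate 1 correlated best with C8 replicate 1. H10 replicates 2 and 3 correlated best with C8 arrays of another number (0.144 and 0.227). With 3 arrays a line, these correlations cannot exclude a culture or batch shared by arrays of the same number. At an adjusted p under 0.01, Isg15 (1.15) and Ube2l6 (1.35) did not pass, 3 of the 5 genes did, and 201 features were higher and 67 lower. Features called lower numbered 521 with the filter on dim features, which left 17939 features and removed Isg15, so that it has no value there. They numbered 531 with 1 feature per gene and with the mean of a gene's features, over 19931 features. The other alternatives changed no call of the 5 genes. The cause was not tested where a call was lost. With 3 arrays a line, exact permutation of a single gene cannot go below 0.1.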
